A study of Mus musculus with 71 samples.

Results

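The 6 genes described here encode the IGF2BP proteins (Igf2bp1, Igf2bp2, Igf2bp3), the LIN28 proteins (Lin28a, Lin28b) and the ubiquitin ligase TRIM71 (Trim71). They were chosen by gene name, and all 6 of the 6 names were found among the 21527 genes measured. IGF2BP proteins bind messages through KH domains and are known for keeping bound messages, including m6A-modified ones, from decay. LIN28 proteins bind precursors of the microRNA let-7 and block their maturation, and TRIM71 represses messages that it binds. The genes are best known from early embryos and stem cells, and several of them are classical targets of let-7 itself, which is why LIN28 and let-7 are described as a feedback pair. All 6 are protein-coding genes on the minus strand (GRCm38): Igf2bp1 at chr11:95957163-96005940, Igf2bp2 at chr16:22059009-22163299, Igf2bp3 at chr6:49085223-49214957, Lin28a at chr4:134003330-134018841, Lin28b at chr10:45376620-45486395 and Trim71 at chr9:114507133-114564369.

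Levels and decay of the 6 messages were measured by SLAM-seq in male mouse embryonic stem cells (mESC) kept in 2i/LIF medium. RNA was labelled with 100 µM 4-thiouridine (s4U) for 24 h and chased with uridine for 0, 1, 1.5, 2.3, 3.5, 5.3, 8 or 12 h. From 6 h before the chase to its end the cells received either 20 µM STM2457, an inhibitor of the m6A methyltransferase Mettl3, or the solvent DMSO. The series holds 71 libraries in 18 groups, with 4 libraries per treatment and time and without s4U, except for 3 with STM2457 at 3.5 h. The study describes its replicates as independent biological ones, and the labels give only a number for each, so p-values measure the spread between these libraries. Each library held 4539726 to 7368244 reads counted on 3′ UTR windows. The inhibitor acts on the enzyme and not on its message, and Mettl3 itself differed by a log2 fold change of -0.05 (adjusted p = 0.63, edgeR). The pluripotency markers were present in every group. Their summed level was 985 to 1461 CPM (reads per 1000000 counted, scaled for composition) over the DMSO groups and 1272 to 1666 CPM over the STM2457 groups. Over the labelled times 5 of the 9 that could be tested were higher with STM2457 and 1 was lower (edgeR, adjusted p under 0.01). Of all transcripts, 13.9% were called higher and 12.6% lower. Nanog, Esrrb, Zfp42, Tbx3 and Tfcp2l1 rose, Dppa3 fell, and Pou5f1, Klf4 and Prdm14 did not pass. Formative markers summed to 199 to 352 CPM, with Sox3 higher and Dnmt3b lower, and 3 of 5 did not pass. Markers of primitive endoderm summed to at most 8.95 CPM, of trophectoderm to 50.1, of mesoderm to 72.6, of fibroblasts to 20.8 and of neural cells to 0.47 CPM in any group, and of these only the mesoderm gene T was called, as lower. The part of these cell states in the results was not tested. In bulk libraries, fewer cells that express a gene and less of its RNA per cell cannot be told apart.

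The sequences that tie the 6 messages to let-7 are shown first, because all 6 annotated 3′ UTRs hold the complement of its seed. Mature microRNAs (RefSeq, GRCm38.p6) are given 5′ to 3′ with bases 2 to 8, the seed, in capitals. All 8 let-7 members in the table and miR-98 share 1 seed, and miR-125a and miR-125b, which belong to the lin-4 family, share another.
let-7a-5p: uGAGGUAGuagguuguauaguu
let-7g-5p: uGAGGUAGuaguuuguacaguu
miR-98-5p: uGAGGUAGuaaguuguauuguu
miR-125b-5p: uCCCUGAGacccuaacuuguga

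The seed complement CTACCTC was searched on the sense strand of the longest annotated 3′ UTR of each gene (GENCODE M21). It was found in 9.51% of 19047 genes' 3′ UTRs. Igf2bp1, Lin28b and Trim71 held 4 matches each, Lin28a held 2, and Igf2bp2 and Igf2bp3 held 1 each. Longer 3′ UTRs hold more matches by length alone, and among 3′ UTRs within 25% of the member's own length the motif was present in 32.3% for Igf2bp1 (6337 bases), 28.3% for Trim71 (5512), 23.8% for Lin28b (4445), 14.7% for Lin28a (2775), 13.2% for Igf2bp3 (2119) and 11.7% for Igf2bp2 (1784). The first match of each message is shown with the 15 bases before it and the 1 base after it, and the match is in capitals. All of these stretches lie in the 3′ UTR and on the minus strand of GRCm38.
Igf2bp1, chr11:95961778-95961800, exon 15: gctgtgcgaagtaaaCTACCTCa
Igf2bp2, chr16:22059473-22059495, exon 16: acacacaaataaaagCTACCTCa
Igf2bp3, chr6:49086787-49086809, exon 15: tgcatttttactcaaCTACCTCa
Lin28a, chr4:134005189-134005211, exon 4: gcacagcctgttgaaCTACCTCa
Lin28b, chr10:45381022-45381044, exon 5: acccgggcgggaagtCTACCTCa
Trim71, chr9:114512472-114512494, exon 4: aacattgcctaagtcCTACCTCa
In all 6 the match shown was followed by an A. Among the matches not shown, those of Lin28b and the last of Igf2bp1 were followed by another base. The complement of the miR-125 seed, CTCAGGG, occurred once each in Igf2bp3, Lin28a, Lin28b and Trim71, and in 13.8% of all 3′ UTRs. Among 3′ UTRs of like length it was present in 20.4%, 24.8%, 31.02% and 36.6% for these 4, and in 39.8% and 17.8% for Igf2bp1 and Igf2bp2, which held none. The sites of both LIN28 messages and of Trim71 were followed by an A, and the LIN28 sites are shown because Lin28 is a long-known target of this family.
Lin28a, chr4:134005301-134005323, exon 4: aggtacatgagcaatCTCAGGGa
Lin28b, chr10:45378798-45378820, exon 5: ggacaaagaactttgCTCAGGGa
The microRNAs themselves were not measured, and a match is a description of the letters and not of binding.

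The motif GGAC followed by any base other than G, a preferred context of m6A, was counted on the sense strand of the same 3′ UTRs. Igf2bp1 held 23 (3.63 per kb), Trim71 19 (3.45 per kb) and Lin28a 10 (3.604 per kb). These densities lay above those of 88.3%, 83.1% and 77.6% of 3′ UTRs of like length. Lin28b held 8 (1.80 per kb), Igf2bp3 4 (1.89 per kb) and Igf2bp2 3 (1.68 per kb), and between 27.3% and 33.1% of 3′ UTRs of like length had a lower density. This motif was found in 81.0% of all 3′ UTRs, and in 97.5% or more of those as long as a member's.

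Some libraries stood apart from the rest, which was examined after the main tests. The first principal component of log2 CPM, computed over 5000 genes without the members, carried 45.2% of the variance, and 12 libraries lay more than 3 scaled median absolute deviations from its median. They were 9 DMSO libraries (1 without s4U, 1 at 0 h, 3 at 1 h, 2 at 1.5 h and 2 at 5.3 h) and 3 STM2457 libraries, all at 1 h. Their depth of 4562128 to 6237566 reads was within the range of the others. The sign of the component is arbitrary and was set so that the r of Lin28a is negative. Across genes, the loading on this component had a correlation of r = -0.44 with the GC content of the last 250 bases of the 3′ UTR (4837 genes, which are not independent). Lin28a followed the component more than the other members did, with r = -0.78 over the 71 libraries, and 9.42% of all genes tested had a larger absolute r. Its level had a median of 201 CPM (95.3 to 303) in the 12 libraries and of 348 CPM (224 to 527) in the other 59. Igf2bp1 was at a median of 602 CPM in the 12 and 622 CPM in the 59, with r = -0.06. Values below are from all 71 libraries unless stated, and those over the labelled times are also given without these 12, as are values at single times of Igf2bp2, Lin28a, Lin28b and Trim71 that moved when they were left out. At 1 h only 1 library per treatment then remains.

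**Figure D1:**
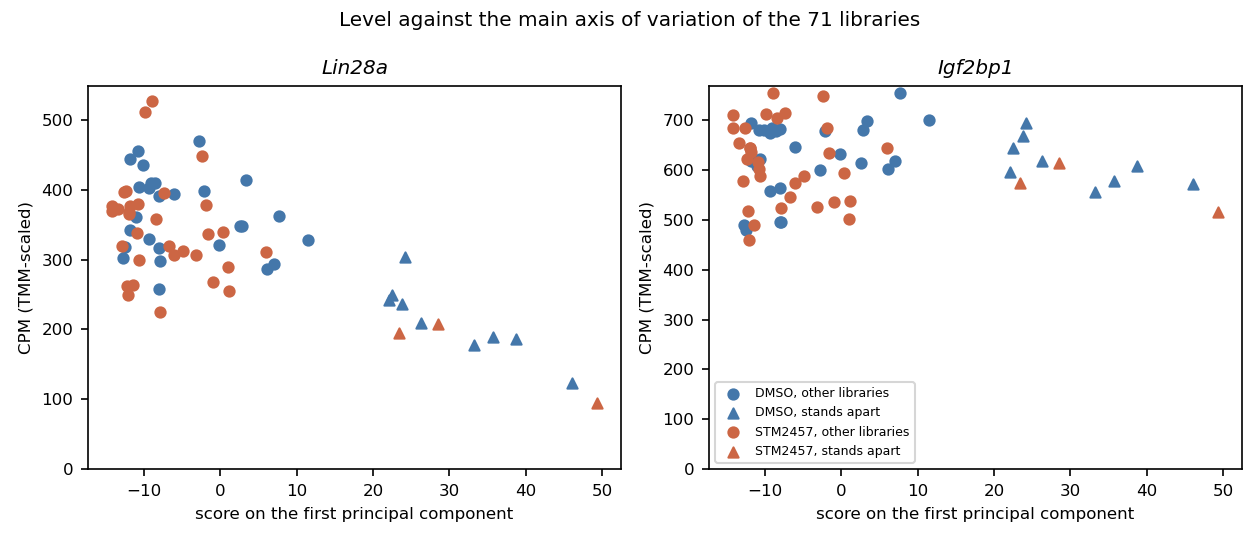
Level of Lin28a (left) and Igf2bp1 (right) in CPM (y axis, from 0) against each library's score on the first principal component (x axis), for the 71 libraries, with DMSO in blue, STM2457 in orange and the 12 libraries that stand apart as triangles. Lin28a falls to between 95.3 and 303 CPM in the triangles, while Igf2bp1 lies between 517 and 696 CPM in the triangles, within its range in the other libraries.

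The 6 messages differed widely in level. Windows differ in length (251 to 1005 bases), so levels are given both as CPM per kb of window and as CPM. The libraries were made from the 3′ ends of messages, so reads need not grow with window length. The order of the genes depended on the measure. In the 32 labelled DMSO libraries, Lin28a had the highest median (635 CPM per kb, 242 to 890), next to Igf2bp1 (615, 478 to 698), and their ranges overlapped over most of their length. Igf2bp2 (221, 146 to 334), Trim71 (214, 142 to 264) and Lin28b (202, 158 to 257) followed with ranges that overlapped each other, and Igf2bp3 was lowest (134, 85.5 to 176). In the 31 labelled STM2457 libraries the median order was the same except that Trim71 and Igf2bp2 were further apart, at 231 (162 to 314) and 294 (232 to 404) CPM per kb. Without scaling to length, the median levels in DMSO were 618 CPM for Igf2bp1, 324 for Lin28a, 161 for Trim71, 55.4 for Igf2bp2, 53.3 for Lin28b and 34.9 for Igf2bp3. By this measure Igf2bp1 lay above Lin28a, and Trim71 above Igf2bp2. Of the reads of each member at most 1.01% mapped to several places.

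**Figure D2:**
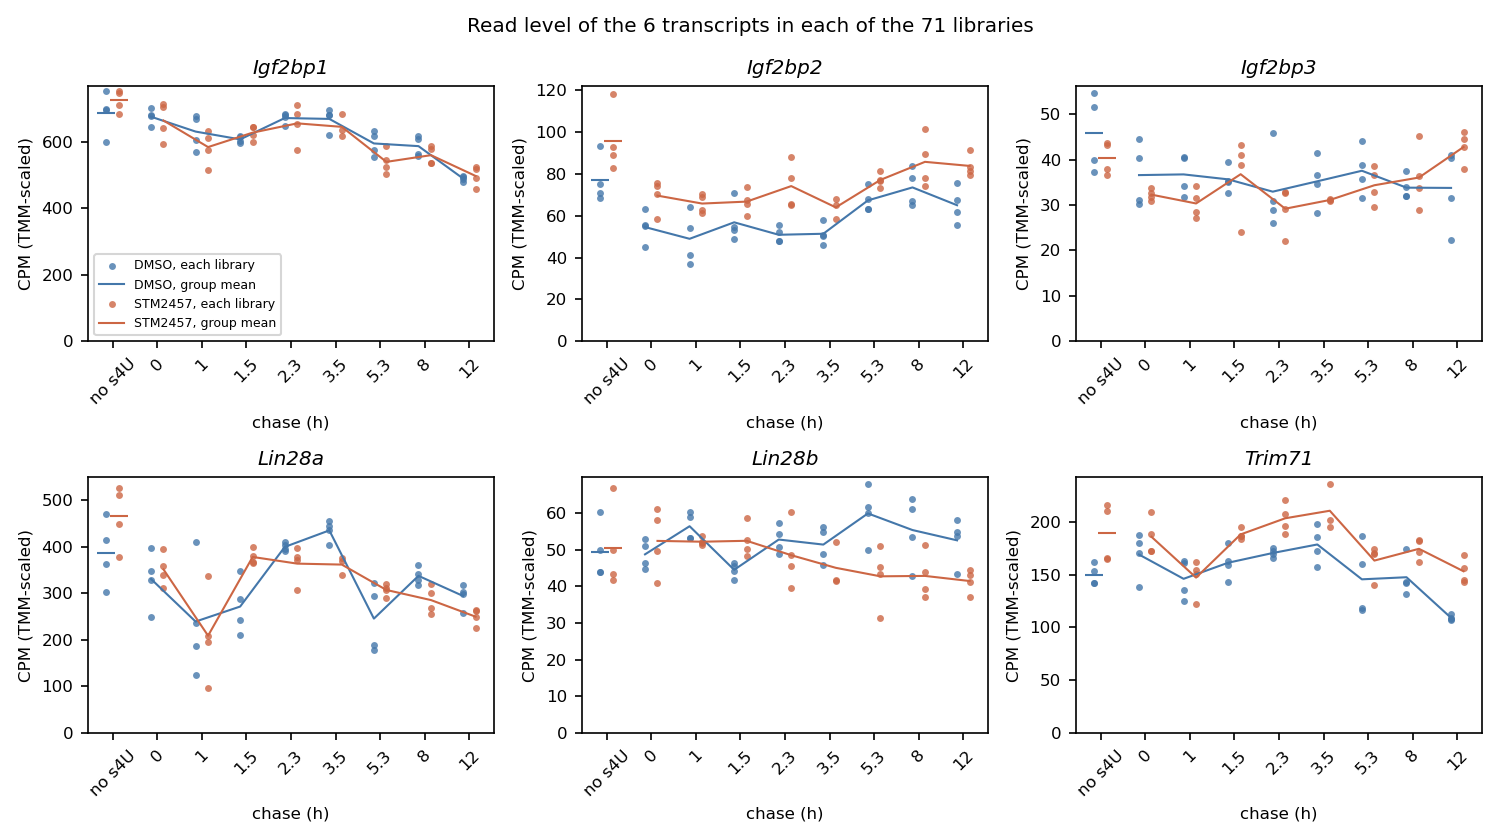
Level of each of the 6 transcripts in CPM (y axes, from 0) by hours of chase (x axis, evenly spaced categories, with the unlabelled libraries first), 1 point per library and lines through the group means, DMSO in blue and STM2457 in orange. The STM2457 means of Igf2bp2 and Trim71 lie above those of DMSO at all 8 chase times, Lin28a dips at 1 h in both treatments, and Igf2bp1 falls toward 12 h in both.

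STM2457 was compared with DMSO over the 8 labelled times. With the inhibitor Igf2bp2 rose, Trim71 rose and Lin28b fell, while Igf2bp1, Igf2bp3 and Lin28a did not pass the test. So 3 of 6 members were called at an adjusted p under 0.01 (edgeR quasi-likelihood test), where 26.5% of the 12659 transcripts tested were called. The 2 rises stand beside 13.9% of transcripts called higher, and the 1 fall beside 12.6% called lower. The median log2 fold change of all transcripts was -0.01, and 73.7%, 57.8% and 45.3% of them had a smaller absolute log2 fold change than Igf2bp2, Trim71 and Lin28b. The scaling for composition holds this median near 0. Rises and falls are therefore relative to the other transcripts, and a change shared by most of them would not be seen.

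Igf2bp2, a regulator of metabolism-related messages, showed the largest difference of the 6. At 0 h the DMSO libraries held 55.3, 44.8, 62.97 and 55.1 CPM and the STM2457 libraries 58.3, 70.4, 75.4 and 74.0 CPM. Only the lowest STM2457 library lay within the DMSO range. At 2.3 h the DMSO libraries held 47.9, 47.96, 55.5 and 52.1 CPM and the STM2457 libraries 65.03, 77.7, 65.5 and 88.1 CPM, and at 12 h 61.8, 67.3, 75.4 and 55.4 CPM stood against 91.2, 79.5, 83.0 and 81.3 CPM. The groups did not overlap at either of these times, nor at 3.5 h, where 46.1 to 57.9 CPM stood against 58.4 to 68.1 CPM. Between 12.2% and 17.9% of all transcripts had groups that did not overlap at 2.3, 3.5 or 12 h. Over the labelled times the log2 fold change was 0.33 (SE 0.048, adjusted p = 3.8e-08, edgeR), or 1.26-fold. The estimate was positive at each of the 8 times, from 0.20 at 5.3 h to 0.54 at 2.3 h, and passed the test alone at 2.3 h (adjusted p = 0.0094, edgeR; 1.61% of transcripts called). Without s4U it was 0.31 (SE 0.13, adjusted p = 0.16, edgeR). Without the 12 libraries that stand apart it was 0.29 (adjusted p = 2.8e-05, edgeR) over the labelled times and positive at each of the 8 times, but went from 0.43 to 0.19 at 1 h and from 0.23 to 0.15 at 1.5 h. With the first principal component as a covariate it was 0.10 at 1.5 h and 0.08 at 5.3 h. The call at 2.3 h was close to the threshold and was lost under 10 of 15 alternatives, among them 6 of the 8 that leave out a replicate.

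Trim71 was higher with STM2457 by a log2 fold change of 0.22 (SE 0.041, adjusted p = 9.8e-06, edgeR), or 1.16-fold. The largest difference was at 12 h, where the DMSO libraries held 113, 108, 107 and 109 CPM and the STM2457 libraries 169, 143, 145 and 156 CPM. The groups were far apart for this gene at 12 h, and the log2 fold change of 0.49 (SE 0.12, adjusted p = 0.0019, edgeR; 5.41% of transcripts called) passed the test, but not without STM2457 replicate 1 (0.44, adjusted p = 0.016, edgeR). They also did not overlap at 1.5 h (143 to 181 against 184 to 196 CPM), 2.3 h (166 to 175 against 189 to 221 CPM) and without s4U (142 to 163 against 165 to 216 CPM), where 22.7%, 12.2% and 10.8% of all transcripts did not overlap. In all libraries the difference was 0.01 at 1 h and between 0.14 and 0.25 at the other labelled times. Without the libraries that stand apart it was 0.04 at 0 h, -0.04 at 1 h, 0.14 at 1.5 h and -0.09 at 5.3 h. With the covariate it was -0.01 at 1.5 h and -0.02 at 5.3 h. None of those at 0, 1.5 and 5.3 h was called. The direction thus turned at 5.3 h in both fits, and at 1.5 h only with the covariate. At 1 h the estimate was near 0 in all libraries, and the fit without those that stand apart kept 1 library per treatment, so no direction was shown. Without the libraries that stand apart the difference over the labelled times was 0.16 (adjusted p = 0.0014, edgeR). At 12 h no library stood apart.

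Lin28b was lower with STM2457 by a log2 fold change of -0.16 (SE 0.051, adjusted p = 0.0087, edgeR), or 0.89-fold. The sign was not the same at all times. At 1.5 h the STM2457 libraries (48.3 to 58.8 CPM) lay above the DMSO libraries (41.7 to 46.5 CPM) with no overlap, beside 22.7% of all transcripts. The log2 fold change there was 0.24 (SE 0.14, adjusted p = 0.25, edgeR), not called, and DMSO replicates 2 and 4 stand apart at this time. From 2.3 h on every estimate was negative. At 5.3 h the DMSO libraries held 59.98, 61.8, 50.1 and 67.95 CPM and the STM2457 libraries 43.3, 51.2, 45.3 and 31.3 CPM, with a log2 fold change of -0.49 (SE 0.14, adjusted p = 0.017, edgeR). At 12 h 54.999, 43.5, 58.1 and 53.8 CPM stood against 43.1, 37.2, 41.1 and 44.5 CPM. The groups overlapped at both times, by 1 library in each. When the 12 libraries were left out the estimate at 1 h went from -0.11 to -0.24 and that at 0 h from 0.10 to 0.05. The call over the labelled times was lost in 8 of 15 alternatives, which were the fits without the libraries that stand apart (-0.19, adjusted p = 0.018, edgeR), with no filter (-0.16, adjusted p = 0.019, edgeR) and 6 of the 8 that leave out a replicate, although the estimate stayed between -0.14 and -0.19 in all 15 alternatives.

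Lin28a was not called over the labelled times in all libraries (log2 fold change -0.02, SE 0.071, adjusted p = 0.83, edgeR). This value moved with the libraries kept and with the model. Without the libraries that stand apart it was -0.12 (adjusted p = 0.0097, edgeR), close to the threshold of 0.01. With the first principal component as a covariate it was -0.23 (adjusted p = 5.6e-10, edgeR), while leaving out DMSO replicate 1 gave 0.05. At 1.5 h, where 2 of the DMSO libraries stand apart, Lin28a was at 348, 209, 286 and 242 CPM in DMSO and at 379.6, 398, 368 and 365 CPM in STM2457. At 3.5 h, where none does, it was at 444.5, 436, 404 and 455 CPM in DMSO and at 376, 369 and 338 CPM in STM2457. The groups did not overlap at either time and lay in opposite order, beside 22.7% and 15.7% of all transcripts without overlap. The direction at 1.5 h stayed without the libraries that stand apart and turned with the covariate. The log2 fold change there was 0.48 in all libraries, 0.25 without them and -0.23 with the covariate. At 3.5 h it was -0.27, -0.28 and -0.31 in turn. At 0 h it went from 0.09 to -0.04 without them and -0.21 with the covariate, at 5.3 h from 0.32 to 0.00 and -0.26, and without s4U from 0.27 to 0.15 and -0.11, none of them called. At 1 h, with 6 of 8 libraries standing apart, it ranged from 123 to 410.0 CPM in DMSO and from 95.3 to 337 CPM in STM2457, with a log2 fold change of -0.19 in all libraries and -0.31 without these.

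Igf2bp1 and Igf2bp3, the other IGF2BP messages, showed no difference that passed the test. For Igf2bp1, the most read of the 6, the log2 fold change over the labelled times was -0.05 (SE 0.027, adjusted p = 0.20, edgeR), with an interval of 2 SE from -0.10 to 0.01. For Igf2bp3 it was -0.06 (SE 0.060, adjusted p = 0.49, edgeR), with an interval from -0.18 to 0.06. Igf2bp3 was the least read, with 123 to 304 reads per library, and its estimates by time ran from -0.28 at 1 h to 0.34 at 12 h. With the 12 libraries left out the values over the labelled times were -0.06 for Igf2bp1 and -0.0073 for Igf2bp3, and that of Igf2bp3 at 5.3 h went from -0.13 to 0.03, none of them called. At single times, 2 of the 54 tests of a member at a time or without s4U were called, and DESeq2 called 3. The share of all transcripts called by edgeR was 1.68% at 0 h, 1.53% at 1 h, 8.18% at 1.5 h, 1.61% at 2.3 h, 1.3% at 3.5 h, 4.45% at 5.3 h, 2.34% at 8 h, 5.41% at 12 h and 2.58% without s4U. No overlap between the groups was seen in 10 of the 54, beside 10.7%, 5.23%, 22.7%, 12.2%, 15.7%, 16.1%, 13.7%, 17.9% and 10.8% of all transcripts in the same order.

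**Figure D3:**
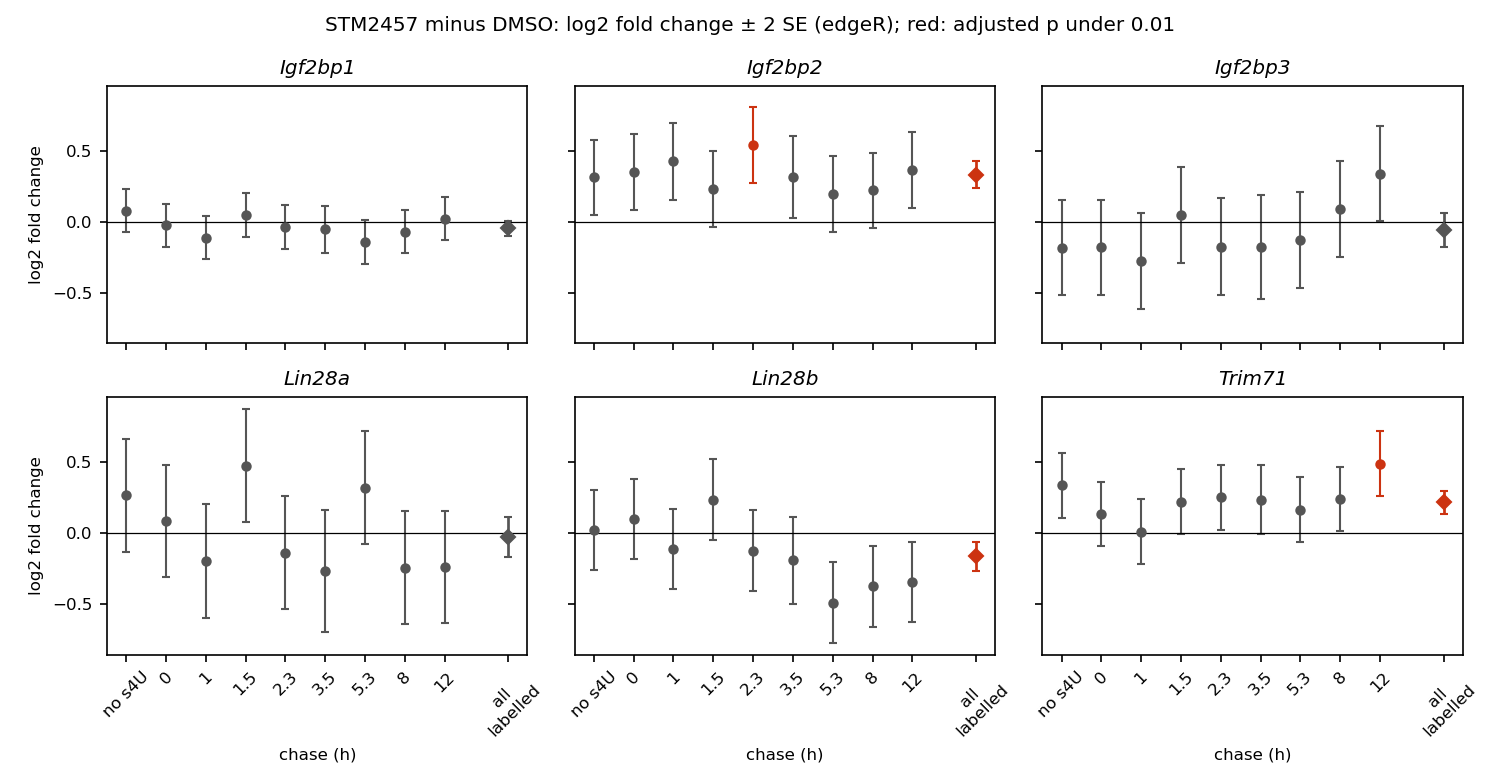
Log2 fold change STM2457 minus DMSO (y axes, shared) for each of the 6 transcripts without s4U, at each hour of chase and over all labelled times (diamond); points are edgeR estimates, bars are 2 SE and red marks an adjusted p under 0.01. Over the labelled times Igf2bp2 (0.33) and Trim71 (0.22) are called higher and Lin28b (-0.16) lower, and at single times only Igf2bp2 at 2.3 h and Trim71 at 12 h are called.

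The level of the messages was then compared between the ends of the chase, 12 h and 0 h, within each treatment. Igf2bp1 fell in both. In DMSO it held 645, 701, 679.5 and 680.2 CPM at 0 h and 496, 480.2, 495.5 and 489 CPM at 12 h. In STM2457 it held 595, 644, 716 and 706 CPM at 0 h and 525, 490.3, 459 and 518 CPM at 12 h. No 12 h library reached the lowest 0 h library in either treatment, and the share of all transcripts with such a gap was not counted. The log2 fold change was -0.46 (SE 0.077, adjusted p = 3.6e-06, edgeR) in DMSO and -0.42 (SE 0.077, adjusted p = 8.8e-05, edgeR) in STM2457, and the difference between them was 0.05 (SE 0.11, adjusted p = 0.90, edgeR). In STM2457 the call was lost without replicate 3 (adjusted p = 0.013, edgeR).

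Trim71 fell in DMSO, from 138, 187, 171 and 180.5 CPM at 0 h to 107 to 113 CPM at 12 h (log2 fold change -0.63, SE 0.12, adjusted p = 2.1e-05, edgeR). In STM2457 it held 173, 189, 209.6 and 172.5 CPM at 0 h and 143 to 169 CPM at 12 h, and its change was -0.28 (SE 0.11, adjusted p = 0.11, edgeR). The difference between the treatments was 0.35 (SE 0.16, adjusted p = 0.29, edgeR), so the fall was not shown to differ between them. Thus 2 of 6 members changed in DMSO and 1 of 6 in STM2457, beside 13% and 4.72% of all transcripts called in either direction and 8.2% and 3.03% called lower. The difference of the changes was not called for any member (edgeR, 1.11% of transcripts called), and DESeq2 called none either. The unadjusted p (edgeR) was 0.029 for Lin28b (-0.45), 0.032 for Trim71 and 0.032 for Igf2bp3 (0.52). The share of all transcripts with an unadjusted p as low was not counted. For Lin28a the changes were -0.17 in DMSO and -0.49 in STM2457, neither called. Without the libraries that stand apart the change in STM2457 was -0.48 (adjusted p = 2.7e-05, edgeR) and that in DMSO -0.30 (adjusted p = 0.014, edgeR). With the covariate they were -0.73 (adjusted p = 2.7e-12, edgeR) and -0.68 (adjusted p = 8.3e-11, edgeR), both called, which makes 3 members called in DMSO, and Trim71 in STM2457 was called too (-0.36, adjusted p = 0.0039, edgeR). Hours of chase and hours in culture or with the inhibitor run together in this design and cannot be told apart.

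Labelling itself was compared as 0 h of chase against no s4U. No member passed the test in either treatment (edgeR, 0.513% and 0.521% of transcripts called), nor by DESeq2. At an unadjusted p under 0.05 (edgeR) there was 1 member in DMSO and 2 in STM2457. The share of all transcripts under that limit was not counted, so these numbers cannot be set against it. Igf2bp2 came nearest, with log2 fold changes of -0.50 (SE 0.13, adjusted p = 0.042, edgeR) in DMSO and -0.46 (SE 0.13, adjusted p = 0.059, edgeR) in STM2457. Its unlabelled libraries held 70.7, 93.5, 68.5 and 75.0 CPM in DMSO and 118, 92.9, 82.8 and 89.1 CPM in STM2457. All lay above the labelled 0 h libraries of the same treatment, and the share of all transcripts without overlap here was not counted.

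Decay was read from the T-to-C conversion rate, the share of covered T positions that were sequenced as C. Without s4U the members' mean rates were 0.045% to 0.21%. At 0 h they rose to 1.34% to 1.60% in DMSO and 1.02% to 1.33% in STM2457. Lin28a had 1.36% ± 0.05 (SD, n = 4) in DMSO and 1.17% ± 0.10 in STM2457, and Igf2bp2 1.60% ± 0.40 and 1.02% ± 0.18. The 4 Igf2bp2 libraries in DMSO were at 1.87%, 2.00%, 1.16% and 1.36%, on 66 to 83 conversions each, and those in STM2457 at 0.95%, 0.95%, 1.28% and 0.88%, on 47 to 86 conversions each. The groups overlapped by 1 library. The difference was -0.59 on the log2 scale with 0.001 added to the rate (SE 0.21, adjusted p = 0.85, limma), and a two-sided exact permutation test gave p = 0.057, where 0.029 is the smallest it can give. For Lin28a the difference was -0.20 (SE 0.12, adjusted p = 0.85, limma) with the same exact p. No member was called by limma at an adjusted p under 0.05, and 0.0276% of 10874 transcripts were. The differences of the other members lay between -0.19 and -0.01, and the median over all transcripts was -0.11.

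For Igf2bp1, Lin28a, Lin28b and Trim71 in both treatments, and for Igf2bp3 in STM2457, the label was lost in a step between 3.5 and 5.3 h. For Lin28a in DMSO, 80.1% of the 0 h rate was left at 1 h, 81.0% at 1.5 h, 81.2% at 2.3 h and 67.2% at 3.5 h, and then 22.99% at 5.3 h, 13.7% at 8 h and 4.26% at 12 h, after subtraction of the unlabelled rate. In STM2457 it was 80.6% at 3.5 h and 21.4% at 5.3 h. Igf2bp1 went from 72.7% to 23.1% in DMSO and from 65.04% to 23.4% in STM2457 over the same interval. Lin28b (57.9% to 8.77% in DMSO) and Trim71 (51.6% to 6.74%) went lower. The median transcript of all 7363 with a half-life did the same, from 59.5% to 14.4% in DMSO and from 60.2% to 18.3% in STM2457, beside which the members' steps stand. Igf2bp2 in DMSO fell more evenly, with 60.1% left at 2.3 h, 45.6% at 3.5 h, 26.04% at 5.3 h and 6.48% at 8 h, and kept 57.05% of its 3.5 h rate over the step, where 85.3% of transcripts kept less. Igf2bp3 in DMSO kept 70.8%, from 72.4% to 51.2%, on 2775 to 4301 covered T positions per library at 5.3 h. In STM2457 Igf2bp3 kept 28.3%, from 71.5% to 20.3%, and Igf2bp2 kept 48.15%, where the median transcript kept 32.3%. A single exponential describes such a course only roughly, and half-lives are summaries of it.

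**Figure D4:**
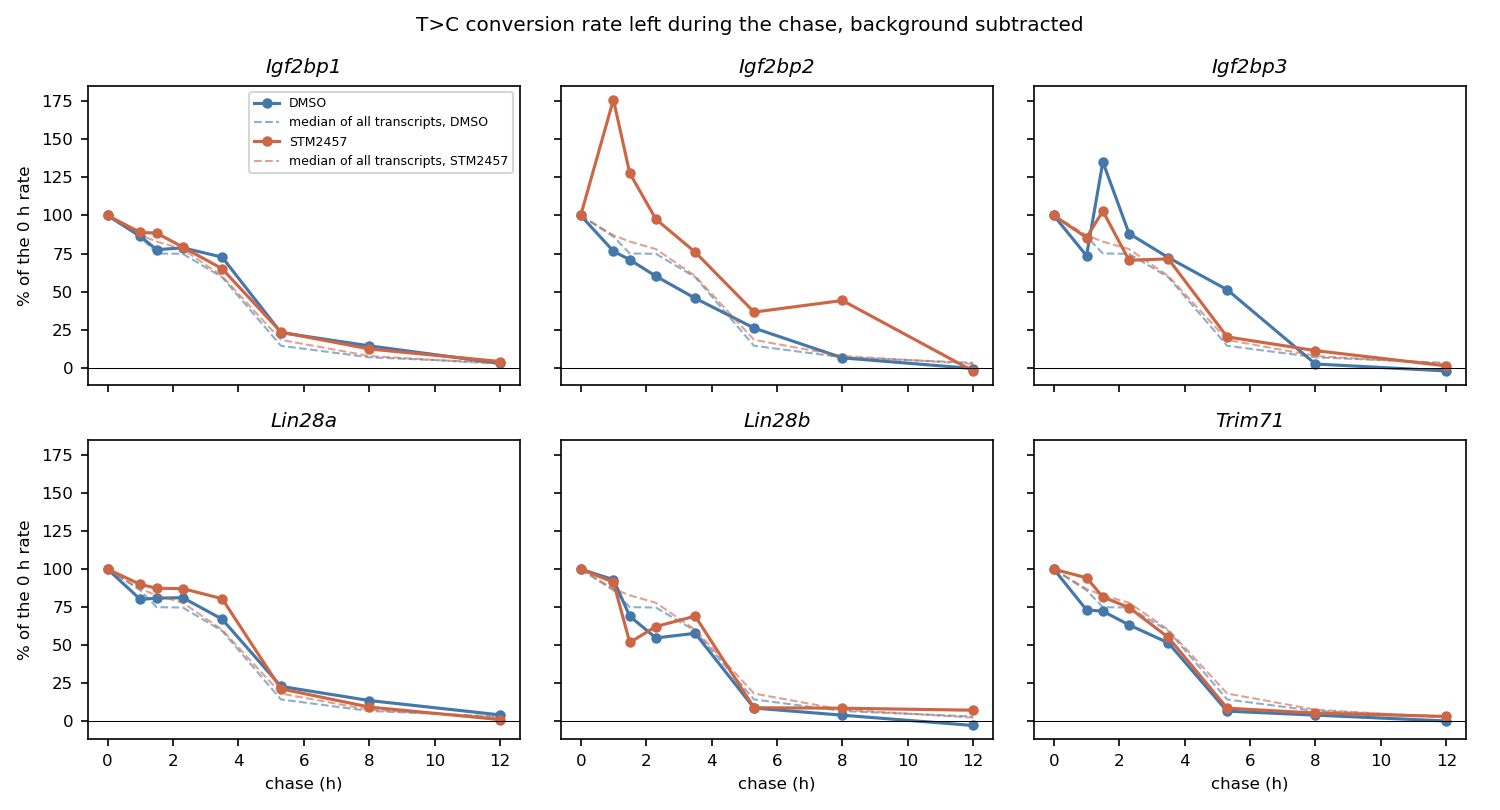
Conversion rate left, as a percentage of the 0 h rate after background subtraction (y axes, shared), against hours of chase (x axis) for the 6 transcripts in DMSO (blue) and STM2457 (orange), with the median of 7363 transcripts as dashed lines. Igf2bp1, Lin28a, Lin28b and Trim71, and Igf2bp3 in STM2457, fall with the dashed lines between 3.5 and 5.3 h. Igf2bp2 in STM2457 rises to 176% at 1 h against its low 0 h rate.

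Half-lives of the 6 messages in DMSO ran from 2.59 h for Trim71 and 2.71 h for Lin28b, over 2.78 h for Igf2bp2, 3.75 h for Lin28a and 3.83 h for Igf2bp1, to 4.83 h for Igf2bp3. Over 7363 transcripts the median lay at 3.19 h without and 3.45 h with the inhibitor. In STM2457 Trim71 was at 3.15 h, Lin28b at 2.92 h, Lin28a at 4.10 h, Igf2bp1 at 3.82 h and Igf2bp3 at 3.83 h. The fit of Igf2bp2 in STM2457 (6.81 h) had a residual standard error of 0.40, above the limit of 0.3, so 5 of the 6 members had a half-life that passed the filters in both treatments.

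The error of these half-lives was taken from 4 series a treatment, in which libraries carrying 1 replicate number were joined over the times. The labels do not say whether the numbers pair libraries across times, so a series is only 1 way to combine them. In DMSO, replicate 1 had the lowest conversion rate over all transcripts at 0, 1, 1.5, 2.3 and 3.5 h and at no later time. In STM2457 this held at 0, 1.5, 2.3 and 8 h only. Whether the numbers pair libraries in this rate was not tested. Trim71 had 4.01, 2.59, 2.00 and 2.26 h in the DMSO series and 3.00, 3.19, 3.08 and 3.08 h in the STM2457 series. The STM2457 values lay close together and within the DMSO range. The mean log2 difference was 0.24 (SE 0.26, adjusted p = 0.88, limma; exact permutation p = 0.31, two-sided). Lin28a had 3.49, 3.67, 4.00 and 3.86 h against 4.26, 4.78, 4.01 and 3.04 h, a log2 difference of 0.08 (SE 0.23, adjusted p = 0.97, limma; exact permutation p = 0.57). The single STM2457 value below all DMSO values was that of replicate 4, whose series lacks the 3.5 h time. Igf2bp1 (-0.03, SE 0.23), Lin28b (-0.06, SE 0.32) and Igf2bp3 (-0.54, SE 0.47) overlapped likewise, with exact permutation p of 0.89, 0.80 and 0.34. The limit of 0.3 on the residual standard error was not applied to single series. Igf2bp3 exceeded it in DMSO replicates 1, 2 and 4 (0.52, 0.31 and 0.48) and STM2457 replicate 1 (0.40). Lin28b did in DMSO replicate 4 (0.304). Igf2bp2 did in DMSO replicate 3 (0.43) and STM2457 replicates 1, 2 and 4 (0.48, 0.36 and 0.99). Igf2bp2 was left out of the limma test, and had 1.73, 1.91, 4.14 and 4.39 h in DMSO and 12.6, 8.62, 3.96 and 6.23 h in STM2457 (exact permutation p = 0.086). Its higher values in STM2457 stand beside the lower 0 h rate by which every later rate is divided, and the part of that rate in them was not tested. Half-lives also moved with the times fitted: from 0 to 3.5 h alone Lin28a had 5.87 h in DMSO and 10.3 h in STM2457, and with a log-linear fit 2.78 and 2.18 h, in the opposite order. No half-life was called by limma for any member (none at an unadjusted p under 0.05), nor for any of the 5741 transcripts tested (0%; 405 had an unadjusted p under 0.05).

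**Figure D5:**
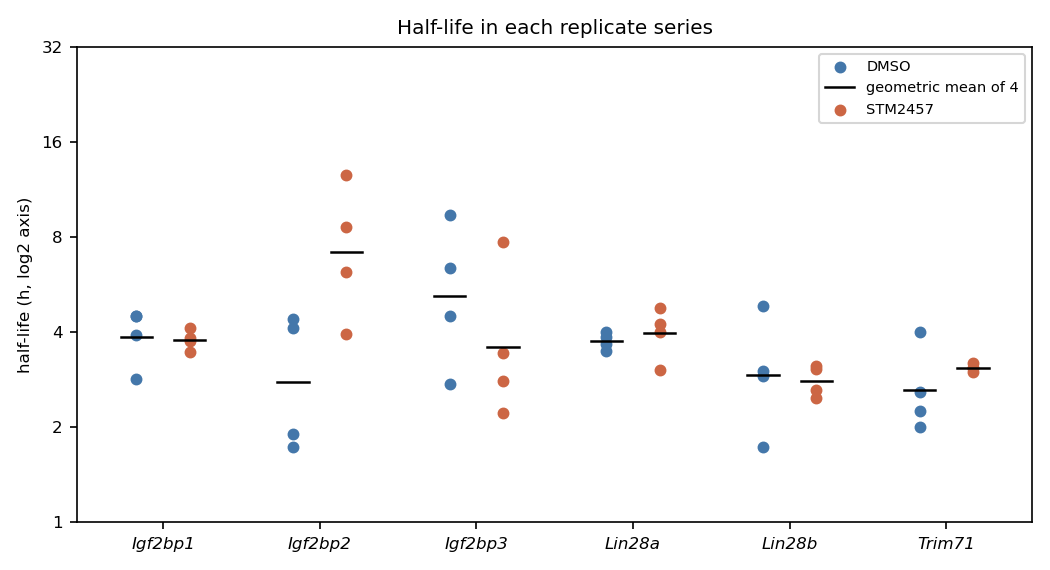
Half-life in h (y axis, log2 scale) of the 6 transcripts in each of the 4 replicate series per treatment, DMSO in blue and STM2457 in orange, with bars at the geometric mean of the 4. The treatments overlap for every transcript, and the spread between series is narrow for Lin28a in DMSO (3.49 to 4.00 h) and wide for Igf2bp3 (2.74 to 9.38 h in DMSO).

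Genes around the 6 proteins were read from 4 lists over the labelled times. Of 18 let-7 target genes, 3 rose, 6 fell and 9 did not pass the test, with a median log2 fold change of -0.03 against -0.01 for all transcripts. The largest rises were those of Igf1r, the receptor of insulin-like growth factors (0.44, adjusted p = 3.1e-05, edgeR), and of the transcription factor Mycn (0.41, adjusted p = 1.5e-09, edgeR). The largest falls were those of the ubiquitin-conjugating enzyme Cdc34 (-0.41, adjusted p = 6.0e-12, edgeR) and of cyclin D2, Ccnd2 (-0.34, adjusted p = 1.6e-12, edgeR). Without the libraries that stand apart, where 19.9% of 13565 transcripts were called, 1 rose and 3 fell, and Igf1r was no longer called (0.32, adjusted p = 0.017, edgeR).

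Of 9 partners in the maturation and turnover of let-7, 2 fell and none rose. Both belong to the nuclear processing complex, Dgcr8 (-0.22, adjusted p = 0.00029, edgeR) and Drosha (-0.15, adjusted p = 0.00063, edgeR), and both also fell without the libraries that stand apart. The others, among them Dicer1 and the uridylyl transferases Tut4 and Tut7, did not pass the test. Of 9 messages known to be bound by IGF2BP proteins, 7 could be tested, of which 1 rose, 1 fell and 5 did not pass the test. The rise was that of Mycn, and without the libraries that stand apart 1 of 8 rose and none fell. This list and that of the let-7 targets share members, Mycn and Myc among them. Of 4 messages repressed by TRIM71, Cdkn1a, an inhibitor of cyclin-dependent kinases, fell (-0.35, adjusted p = 2.5e-05, edgeR), and Egr1, Mbnl1 and E2f7 did not pass the test. The shares called on these lists stand beside 26.5% of all transcripts in all libraries, and beside 19.9% without those that stand apart.

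The genes whose group means of log2 CPM over the 16 labelled groups were most like those of each member were Ptma, Phc1 and Etv4 for Igf2bp1 (Pearson's r of 0.95, 0.95 and 0.93), N4bp2, Xbp1 and Ddx17 for Igf2bp2 (0.92 each), and Bub3, Ptp4a3 and Cdc42 for Lin28a (0.96, 0.95 and 0.95). Pcgf2 and Insig1 were among the 3 genes most like Trim71 (0.92 each). Lin28b was most like Psmg2, Mdc1 and Zfp758 (0.89, 0.83 and 0.81), and Igf2bp3 like Pdia6, Gm14391 and Slc35a1 (0.78, 0.75 and 0.73). Among the members, Igf2bp1 and Trim71 had the highest r (0.66) and Igf2bp1 and Igf2bp2 the lowest (-0.59). The groups share normalization and the axis on which libraries stand apart, so these values are descriptions.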

How the data were processed

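SLAM-seq libraries (QuantSeq 3′ FWD) of mESC were analysed from the tables deposited per library. The authors mapped reads with SLAM-DUNK, counted on 3′ UTR windows and deposited raw counts of reads, multimapping reads, covered T positions and T-to-C conversions. The deposited conversion rate is a fraction, equal to conversions divided by covered T positions in every entry. The submitters' processing notes name FastQC 0.11.8 and GRCm38.p6. The authors also deposited CPM per library, which were not used. Groups were taken from the labels, and hours of chase from the study.

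Counts were tested with edgeR 4.0.16 (quasi-likelihood, TMM, filterByExpr, 12659 genes, Benjamini-Hochberg, adjusted p under 0.01) in 1 model of 18 groups. CPM in the text were recomputed from the counts with TMM scaling. Half-lives came from an exponential fixed at 1 at 0 h, fitted by least squares to background-subtracted rates, with a mean T coverage over 100, half-lives kept between 0.67 and 18 h, and fits discarded above a residual standard error of 0.3. limma 3.58.1 tested log2 half-lives and log2 rates at 0 h (pseudocount 0.001, adjusted p under 0.05). Genes were placed by GENCODE M21 on GRCm38. Scripts were tested on simulated data. Members and lists were chosen with earlier results of these data known. The named genes are all members, the 2 largest called rises and falls per list and the 3 most alike genes per member. Some of the genes this rule names are not reported here. Uncalled list genes, marker genes and Mettl3 are named outside the rule, and were chosen after their values were seen. Of 105 replicate pairs, none was identical. Reads have no molecular identifiers in the sources used here. Alternatives were other size factors, DESeq2 1.42.0, no filter, no multimapping reads, a replicate block, left-out replicates, other half-life settings, pseudocounts and coverage. Leaving out or modelling the libraries that stand apart, and fitting only 0 to 3.5 h, were chosen after seeing the data.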

Additional observations from a re-analysis of the deposited data

Results flagged for a closer look

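Among 126 groups of 4 values (CPM per group, conversion rate at 0 h and half-life per series of the 6 messages), 1 had a value far from the others by Dixon's test, where chance flags about 1 in 20. Trim71 in STM2457 at 5.3 h was at 139.8 CPM in replicate 1 and at 169.8 to 174 CPM in the other 3 libraries.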

How the results depend on the processing

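Over the labelled times the number of members called by edgeR was 2 to 4 over 15 alternatives, and Igf2bp2 and Trim71 were called in each of them. With the replicate block it was 3. Same-numbered libraries of DMSO and STM2457 had deviations of log2 CPM correlated at r = 0.05 on average (-0.305 to 0.593, 13 of 35 pairs over 0.1). The numbers were therefore not taken to pair them in the count tests. Of the 2 calls at single times, 1 was left with relative log expression size factors, with no filter, without multimapping reads and with the block, and 1 to 3 when a replicate was left out. For 12 h against 0 h in STM2457 the 1 call became 2 without the libraries that stand apart and 3 with the first principal component as a covariate, and 0 to 1 when a replicate was left out. For 0 h against no s4U the 0 calls became 1 with the covariate in each treatment, and 1 in STM2457 without the libraries that stand apart. Outside single times, the covariate turned the sign of Igf2bp3 at 12 h against 0 h in DMSO (0.037) and of Trim71 at 0 h against no s4U in STM2457 (0.0072). Of 54 estimates at single times or without s4U, 8 that were not called turned with the covariate (4 of Lin28a, 2 of Trim71, 1 each of Igf2bp1 and Igf2bp3) and 6 without the libraries that stand apart (2 each of Lin28a and Trim71, 1 each of Igf2bp3 and Lin28b). For 12 h against 0 h in DMSO the 2 calls became 3 with the covariate. The cause of these changes was not tested.

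Leaving out a replicate also turned uncalled estimates, with ranges of -0.079 to 0.048 for Lin28a over the labelled times, -0.32 to 0.027 for Igf2bp3 at 12 h against 0 h in DMSO, and -0.028 to 0.15 for Igf2bp1 and -0.10 to 0.14 for Igf2bp2 in the difference between treatments. At 0 h against no s4U they were -0.0596 to 0.0095 for Igf2bp1 and -0.12 to 0.11 for Lin28b in DMSO, and -0.091 to 0.32 for Lin28b and -0.16 to 0.0597 for Trim71 in STM2457. For the 0 h rate they were -0.15 to 0.13 for Igf2bp3 and -0.19 to 0.15 for Lin28b. Over all alternatives, 684 values of single members stayed the same, 22 turned, 20 lost a call, 9 gained one and 3 moved beyond the spread. For log2 ratios of half-lives, the same means within the spread between series. For the other values it means the same direction and side of the threshold. Turns of half-life ratios are therefore not in the 22. That of Lin28b went from 0.11 to -0.29 without DMSO replicate 1, and that of Igf2bp1 from -0.0012 to 0.086 without DMSO replicate 3.

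Counts over all transcripts moved by over 1.5 times in some comparisons. Without the libraries that stand apart, and with the covariate, they were 7 and 424 at 1 h (194 in all libraries), 531 and 344 at 1.5 h (1035), 402 and 448 at 2.3 h (204), 292 and 354 at 3.5 h (164), 220 and 350 at 5.3 h (563), 593 and 569 at 8 h (296), 1088 and 1165 at 12 h (685), 1103 and 1095 for 12 h against 0 h in STM2457 (598), 236 and 267 for the difference (140), and 99 and 195 in DMSO (65) and 216 and 219 in STM2457 (66) for labelling. With the covariate alone it was 363 at 0 h (213), and DESeq2 called 112 and 125 for labelling. Igf2bp3 had 123 to 304 reads per library, and Igf2bp2, Igf2bp3 and Lin28b had a mean of 3643 to 6603 covered T positions, against 19950 to 58902 for the others.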
